A study of Mus musculus with 24 samples.

Results

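The 10 genes Col1a1, Col1a2, Col3a1, Col4a1, Acta2, Timp1, Lox, Tgfb1, Pdgfrb and Lrat, which belong to liver fibrosis and to hepatic stellate cells, were followed in the livers of mice with silenced Keap1. They were taken by name, with every probe set that the platform annotation assigns to a single one of them, which gave 22 of the 45037 probe sets tested and 10 of the 18193 genes with a probe set of their own. Liver RNA of 24 male C57BL6/J mice was hybridized to whole genome arrays, 1 array per mouse. The mice received siKeap1-1, siKeap1-2 or the scrambled siControl (n = 8 mice per group), each chemically modified and carried in lipid nanoparticles, at 1 mg per kg into the tail vein every week for 7 weeks from an age of 8 weeks. All groups ate a high-fat diet with sucrose in the drinking water, and no group without siRNA or on chow was analysed here. The particles reach mainly hepatocytes, whereas most of the 10 genes are products of non-parenchymal cells, a minor part of whole liver RNA. In such RNA, fewer cells of a type and less RNA per cell cannot be told apart. The study's methods describe fed and fasted mice in every group, but the labels do not say which array is which, so the part of feeding in the values below was not tested.

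Hepatic stellate cells lie between hepatocytes and sinusoidal endothelium and store vitamin A as retinyl esters, which the enzyme encoded by Lrat makes. When the liver is injured they lose these stores, become contractile myofibroblasts and lay down fibrillar collagen. The cytokine TGF-beta 1 and platelet-derived growth factor acting on the receptor encoded by Pdgfrb are the best known drivers of this activation. Keap1 is the adaptor that keeps the transcription factor Nrf2 low, and silencing it activates Nrf2 target genes in hepatocytes. All values are log2 signals, so that a difference of 1 is a doubling, and a probe set is called when its adjusted p is under 0.05 in a limma fit over all probe sets.

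Promoters are shown for Col1a2 and Col3a1, because their signals moved together from mouse to mouse, and for Lrat, because it held the only called probe set. They are the 250 bases before the RefSeq transcription start on GRCm38.p6 (chr6:4505368-4505617, plus strand for Col1a2, chr1:45311288-45311537, plus strand for Col3a1 and chr3:82903975-82904224, minus strand for Lrat). Capitals mark matches, on either strand, to the CCAAT box, to the GC box with the letters GGGCGG, and to the TATA box with the letters TATAAA.
Col1a2: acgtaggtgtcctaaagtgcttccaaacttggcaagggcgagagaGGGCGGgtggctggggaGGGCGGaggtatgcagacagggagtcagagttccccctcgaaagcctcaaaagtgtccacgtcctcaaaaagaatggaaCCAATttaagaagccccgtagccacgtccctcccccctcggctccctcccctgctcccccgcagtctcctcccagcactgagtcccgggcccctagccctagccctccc
Col3a1: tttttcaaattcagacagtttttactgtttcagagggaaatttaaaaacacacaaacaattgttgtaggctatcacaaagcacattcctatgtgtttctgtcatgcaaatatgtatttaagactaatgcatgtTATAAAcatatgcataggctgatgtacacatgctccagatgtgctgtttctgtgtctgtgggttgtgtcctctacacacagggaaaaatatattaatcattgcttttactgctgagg
Lrat: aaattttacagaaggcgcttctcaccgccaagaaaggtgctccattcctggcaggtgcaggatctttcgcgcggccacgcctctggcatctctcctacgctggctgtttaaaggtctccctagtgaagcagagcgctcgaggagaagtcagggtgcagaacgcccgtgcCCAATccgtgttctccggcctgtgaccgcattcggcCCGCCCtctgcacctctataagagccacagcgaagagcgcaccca
The Col1a2 window held CCAAT once, 109 to 105 bases before the start, and GGGCGG in 2 places, whereas the Col3a1 window held neither and had TATAAA 117 to 112 bases before the start. Lrat had CCAAT 81 to 77 bases before its start and GGGCGG on the other strand, 45 to 40 bases before it. Among the 32851 promoters of the RefSeq table, 33.8% held the CCAAT box, 32.7% the GC box and 12.4% the TATA box in windows of this length. The core of the antioxidant response element that Nrf2 binds, TGACNNNGC on either strand, was in 10.2% of all these windows and in none of the 7 members whose window was read, which says only that these letters are not in these windows.

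Keap1 itself, measured first as the check of the treatment, was read by its brighter probe set (1450746_at). It was 7.21 to 7.93 in siKeap1-1 livers, 8.03 to 8.59 in siKeap1-2 livers and 9.33 to 10.03 in siControl livers. On this probe set no siKeap1 array reached a control. Its signal fell by 2.13 with siKeap1-1 (adjusted p = 2.285e-12) and by 1.36 with siKeap1-2 (adjusted p = 1.893e-08). The dimmer Keap1 probe set was 4.68 to 5.57 with siKeap1-1, which overlapped with siControl at 5.22 to 5.87. With siKeap1-2 it was 4.64 to 5.19, below every control. It fell by 0.42 with siKeap1-1 (adjusted p = 0.0262) and by 0.44 with siKeap1-2 (adjusted p = 0.0260). The median signal per array was between 5.84 and 5.96, and the arrays correlated across probe sets at 0.9885 or more within a group. An 18S ribosomal RNA probe set, 1 of the array's controls, set some arrays apart. Against siControl its mean was 1.23 higher in siKeap1-1 (p = 0.00435) and 1.18 higher in siKeap1-2 (p = 0.00155), by two-sided exact permutation over all 12870 splits of 8 against 8, and within siControl it was 10.34 to 10.77 in replicates 1 to 3 and 8.86 to 9.54 in replicates 4 to 8. Within siKeap1-1 the same sets were 10.17 to 10.44 and 11.17 to 11.43, and within siKeap1-2 10.82 to 11.12 and 10.45 to 10.96. In replicates 1 to 3, siKeap1-1 thus overlapped with siControl. The permutation treats all mice as exchangeable and takes no account of these steps, so its p values do not allow for them. Values with 18S in the model or with part of the controls stand beside several of the results below.

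The 10 genes were mostly not called. With siKeap1-1, 0 of the 22 probe sets had an adjusted p under 0.05 in limma, against 8.99% of all probe sets tested. With siKeap1-2, 1 of 22 did, the dimmer Lrat probe set, against 6.1% of all. At an unadjusted p under 0.05, 7 were higher and 1 lower with siKeap1-1, where 12.1% of all probe sets were higher and 10.9% lower, and 5 were higher and 1 lower with siKeap1-2, where 9.95% were higher and 10.5% lower. The fold change was above 0 for 19 probe sets with siKeap1-1 and for 18 with siKeap1-2, and its median over the 22 was 0.16 with each siRNA, against 0.02 and 0.00 over all probe sets. Both comparisons share the 8 siControl mice, so that the likeness of these counts is no repeat observation. Nor are the 22 probe sets separate observations. Most genes enter with more than 1, and the collagens moved together from mouse to mouse (r = 0.921 for the Col1a1 pair, 0.893 for Col1a1 and Col1a2). The share of all probe sets with a fold change above 0 was not computed.

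**Figure D1:**
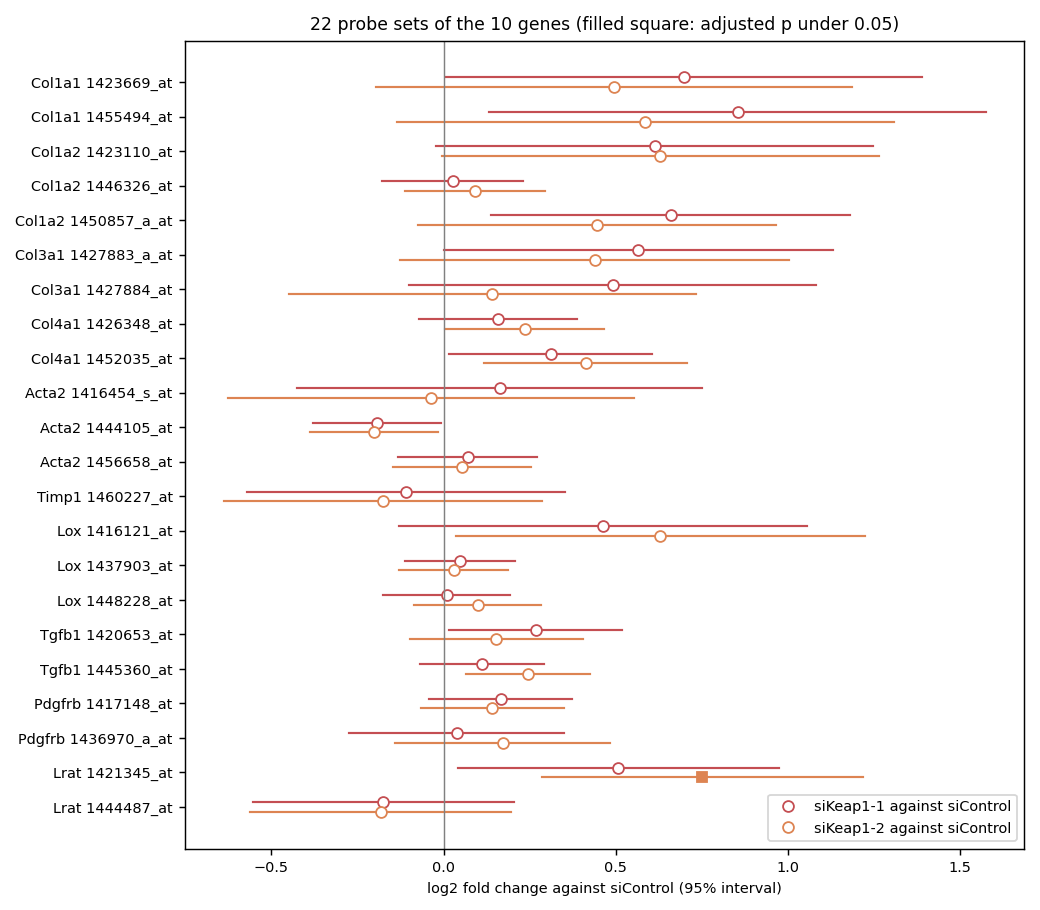
Log2 fold change of each of the 22 probe sets (x axis, with 95% interval of the limma fit) with siKeap1-1 (red) and siKeap1-2 (orange) against siControl; a filled square marks an adjusted p under 0.05. Only Lrat 1421345_at with siKeap1-2, at 0.75, is filled. The collagen probe sets lie right of 0, the dim Col1a2 1446326_at close to it at 0.03 and 0.09. Some of their intervals leave out 0, as for Col1a1 1455494_at with siKeap1-1 (0.13 to 1.58), and others include it.

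Col1a1 and Col1a2 encode the chains of type I collagen, the main protein of liver scars, and Col3a1 encodes type III collagen, which is laid down with it. The brighter Col1a1 probe set (1455494_at) ran from 9.81 through a median of 10.97 to 12.60 with siKeap1-1, from 9.56 through 10.79 to 11.61 with siKeap1-2, and from 9.51 through 10.22 to 10.74 with siControl. In 6 of 8 siKeap1-1 mice and 4 of 8 siKeap1-2 mice it was above every siControl mouse, and the other mice overlapped with the controls. Its mean was 10.94 ± 0.86 with siKeap1-1, 10.68 ± 0.90 with siKeap1-2 and 10.09 ± 0.42 with siControl (SD, n = 8 each). The fold change was 0.85 ± 0.35 (SE, as in all later fold changes) with siKeap1-1, a ratio of 1.81 with a 95% interval of 1.10 to 2.98, and did not pass after adjustment (adjusted p = 0.134). With siKeap1-2 it was 0.59 ± 0.35, a ratio of 1.5 with an interval of 0.910 to 2.48 (adjusted p = 0.365). Without siKeap1-1 replicate 2, the highest mouse, the siKeap1-1 value was 0.62.

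Col1a2 had the same order. Its bright probe set (1450857_a_at) ran from 8.74 through a median of 9.70 to 10.38 with siKeap1-1, from 8.59 through 9.31 to 10.38 with siKeap1-2, and from 8.63 through 8.89 to 9.38 with siControl. The 5 highest siKeap1-1 mice and the 4 highest siKeap1-2 mice were above every control, siKeap1-2 replicate 4 was below every control, and the rest overlapped. The fold change was 0.66 ± 0.25 with siKeap1-1 (adjusted p = 0.107) and 0.45 ± 0.25 with siKeap1-2 (adjusted p = 0.333). Without siKeap1-1 replicate 3, the lowest siKeap1-1 mouse, the first value was 0.78 and was called (adjusted p = 0.0464), and it was also called when only the 2 groups compared were fitted (adjusted p = 0.0489). The second Col1a2 probe set (1423110_at) gave 0.61 with siKeap1-1, or 0.40 without siKeap1-1 replicate 2, and 0.63 with siKeap1-2, whereas the third (1446326_at), at a mean of 3.02 brighter than 8.2% of all probe sets, gave 0.03 and 0.09.

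Col3a1 (1427883_a_at) was the brightest of the 22 probe sets. It ran from 10.49 through a median of 11.25 to 12.07 with siKeap1-1, from 9.83 through 11.10 to 12.06 with siKeap1-2, and from 10.32 through 10.69 to 11.14 with siControl. The 8 siKeap1-2 mice reached both above and below the controls, 4 of them above the highest and 1 below the lowest control. The fold change was 0.57 ± 0.27 with siKeap1-1 (adjusted p = 0.217) and 0.44 ± 0.27 with siKeap1-2 (adjusted p = 0.390). The dimmer Col3a1 probe set (1427884_at) gave 0.49 with siKeap1-1, or 0.30 without siKeap1-1 replicate 2, and 0.14 with siKeap1-2, or -0.01 without siKeap1-2 replicate 7. With the 18S covariate the bright probe set of Col3a1 gave 0.72 with siKeap1-1 and 0.59 with siKeap1-2, that of Col1a1 0.89 and 0.62, and that of Col1a2 0.55 and 0.34, and none of these was called. All fold changes of the bright probe sets of Col1a1, Col1a2 and Col3a1 stayed above 0 with either set of siControl mice as the only controls.

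**Figure D2:**
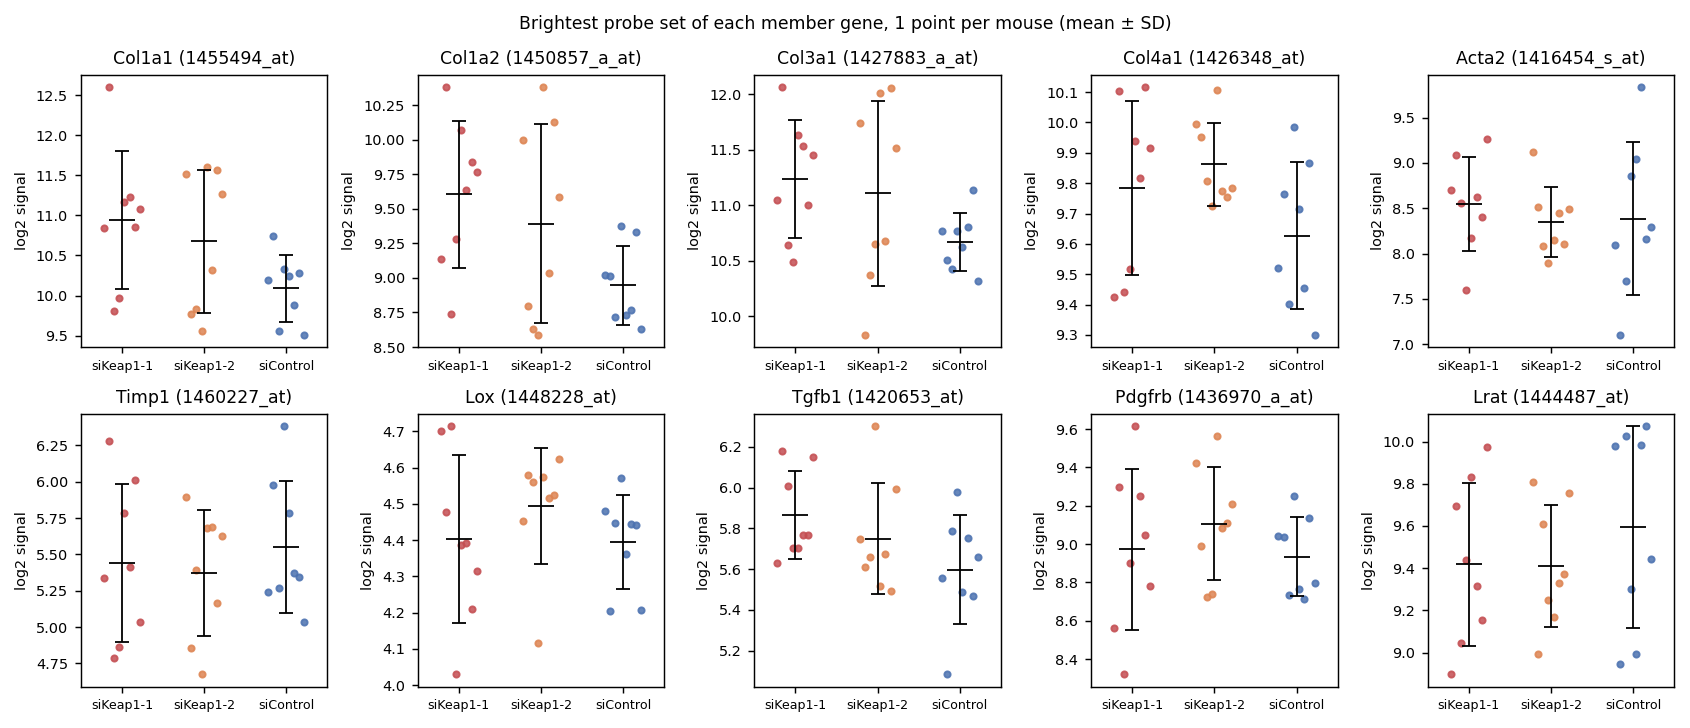
Log2 signal (y axis) of the brightest probe set of each of the 10 genes, 1 point per mouse, in siKeap1-1 (red), siKeap1-2 (orange) and siControl (blue), with mean and SD over 8 mice. Col1a1, Col1a2 and Col3a1 spread wider with both Keap1 siRNAs than with siControl, for Col1a1 from 9.81 to 12.60 and from 9.56 to 11.61, against 9.51 to 10.74.

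The fibrillar collagens also had larger SDs with both Keap1 siRNAs than with siControl. A test of each probe set's absolute deviation from its group median, fitted with limma over all probe sets, was chosen after these values were seen. The SD of Col3a1 (1427883_a_at) was 0.53 with siKeap1-1, 0.83 with siKeap1-2 and 0.26 with siControl, and that of the bright Col1a1 probe set was 0.86 with siKeap1-1, 0.90 with siKeap1-2 and 0.42 with siControl. With siKeap1-2, 5 of the 22 probe sets were wider than with siControl at an unadjusted p under 0.05, against 1.33% of all probe sets. These were both of Col1a1, both of Col3a1 and 1450857_a_at of Col1a2. They moved together from mouse to mouse, at r = 0.921 for the Col1a1 pair and 0.888 for the Col3a1 pair. They are therefore not 5 separate observations. With siKeap1-1, 2 of 22 were wider, Col3a1 (1427883_a_at) and Pdgfrb (1417148_at), against 2.58% of all. After adjustment 0 of 22 passed in either comparison, where 0.00222% of all probe sets passed in each. The smallest adjusted p of a member was 0.320, for Col3a1 with siKeap1-2. The SD of both Lrat probe sets was smaller with siKeap1-2 than with siControl, at 0.29 against 0.63 and 0.29 against 0.48. In the same limma test of deviations these did not pass (unadjusted p = 0.0377 and 0.0400, adjusted p = 0.986 and 0.989). The 2 probe sets moved together (r = 0.656), and the share of all probe sets that were narrower was not computed. The 4 highest Col1a1 mice were replicates 2, 6, 5 and 8 of siKeap1-1 and replicates 5, 7, 1 and 8 of siKeap1-2. Which of these mice were fed is not in the labels, and the part of feeding in the spread was not tested.

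Within groups, the collagens moved together from mouse to mouse. Taken as deviations from the group mean over the 24 arrays, Col1a1 and Col1a2 correlated at r = 0.893 (Spearman's rho = 0.893) and Col1a1 and Col3a1 at r = 0.881 (rho = 0.904). The permutation p, with mice permuted within groups, was 1.00e-05 for each of these r and rho values, which is the smallest that 100000 permutations can give, and 1.50e-04 after adjustment over the 45 pairs of members computed. Without the 2 mice farthest from the median, the r values were 0.876 and 0.877. For Col1a1 and Col1a2 the r was 0.859 within siKeap1-1, 0.975 within siKeap1-2 and 0.652 within siControl, and for Col1a1 and Col3a1 it was 0.945 within siKeap1-1, 0.940 within siKeap1-2 and 0.416 within siControl. The probe sets share the array and its RNA. Of the 45 pairs, 13 had an adjusted permutation p under 0.05 for r, all of them positive, and they joined the 4 collagens, Pdgfrb and Timp1. By their brightest probe sets, Acta2, Lox, Tgfb1 and Lrat were in none of the 13, and Col1a1 gave r = 0.219 with Acta2 (rho = 0.208, adjusted permutation p = 0.462 and 0.629) and r = 0.175 with Lrat (rho = 0.129, adjusted permutation p = 0.679 and 0.820). For Lox this was 1448228_at, at a mean of 4.43. The almost equally bright Lox 1416121_at, at 4.40, did not follow it (r = -0.06). The relation of 1416121_at to the other members was not computed, so the place of Lox rests on the probe set taken.

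**Figure D3:**
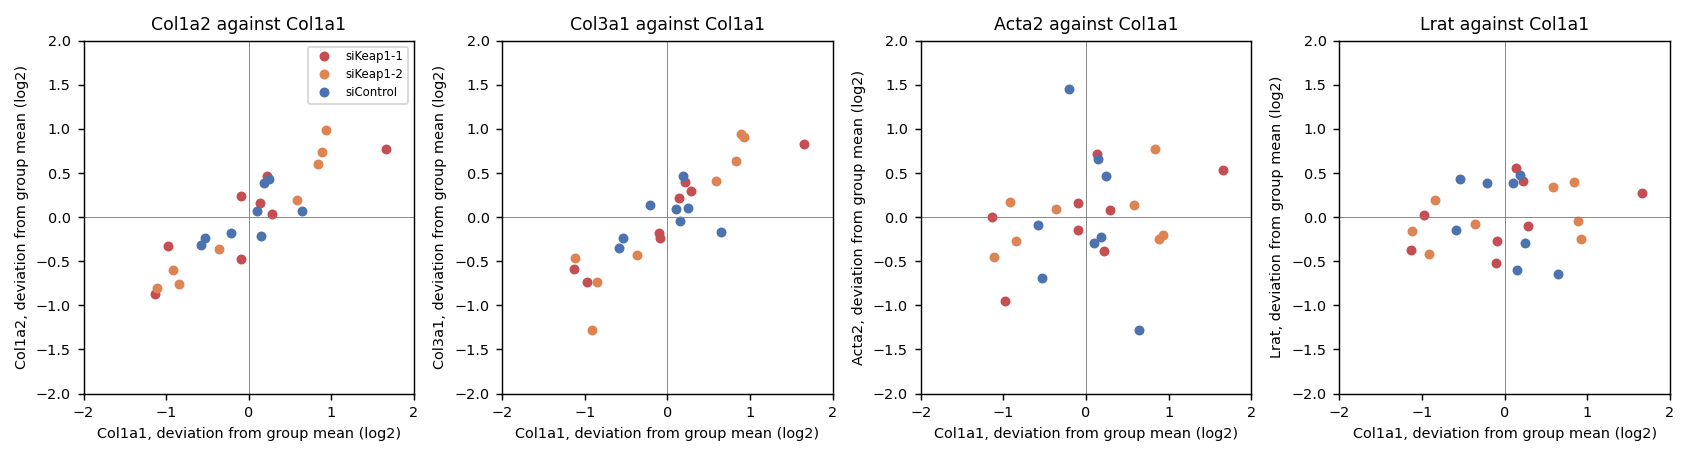
Deviation of Col1a2, Col3a1, Acta2 and Lrat from the group mean (y axes, log2) against that of Col1a1 (x axes, log2), brightest probe sets, 1 point per mouse, coloured by siRNA. Col1a2 and Col3a1 lie along a line (r = 0.893 and 0.881 over 24 arrays), and Acta2 and Lrat do not (r = 0.219 and 0.175).

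Over all 18192 other genes, the 5 whose deviations were most like those of Col1a1 were Col1a2 (r = 0.893), Col6a3 (r = 0.884), Col3a1 (r = 0.881), Col5a2 (r = 0.841) and Col6a2 (r = 0.839). All are collagen genes, of types I, III, V and VI. The same search for the other members was added after the values were seen. Pdgfrb, the receptor of stellate cells and pericytes, was closest to Tnxb (r = 0.874), Itga8 (r = 0.856) and Mmp2 (r = 0.856). Col4a1 was closest to Mmp2 (r = 0.886), which encodes a gelatinase, and Lrat to Dennd2a (r = 0.833) and Bmp5 (r = 0.830). Acta2 was closest to Bcl11b (r = 0.824, rho = 0.643), a T cell transcription factor. Its next 4 were Mmrn1 (r = 0.799, rho = 0.777), Trbv1, a T cell receptor gene (r = 0.798, rho = 0.693), Thy1 (r = 0.798, rho = 0.640), and Cd3e, a subunit of the T cell receptor complex (r = 0.795, rho = 0.727). By rho, Mmrn1 was the closest of these 5. Values within each group were not computed for these 5 genes. The mean of the 3 lymphocyte markers, which include Cd3e, followed Acta2 at r = 0.936 within siControl, but at 0.141 within siKeap1-1 and 0.252 within siKeap1-2.

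Col4a1 encodes type IV collagen of basement membranes, which in liver also runs along vessels and bile ducts. Its brighter probe set (1426348_at) ran from 9.43 through a median of 9.87 to 10.12 with siKeap1-1, from 9.73 through 9.79 to 10.11 with siKeap1-2, and from 9.30 through 9.62 to 9.99 with siControl. The groups overlapped, with 2 mice of each Keap1 siRNA above the highest control. The fold change was 0.16 ± 0.11 with siKeap1-1 (adjusted p = 0.436) and 0.24 ± 0.11 with siKeap1-2 (adjusted p = 0.232), and 0.08 and 0.16 with the 18S covariate. The other probe set (1452035_at) was higher in 5 mice of each Keap1 siRNA than in any control. It gave 0.31 ± 0.14 (adjusted p = 0.187) and 0.41 ± 0.14 (adjusted p = 0.0872), and the siKeap1-2 value was called with array weights (adjusted p = 0.0326) and when only the 2 groups compared were fitted (adjusted p = 0.0282).

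Acta2 encodes smooth muscle alpha-actin, the usual mark of activated stellate cells, which vascular smooth muscle also makes. Its bright probe set (1416454_s_at) ran from 7.60 through a median of 8.59 to 9.26 with siKeap1-1, from 7.89 through 8.30 to 9.12 with siKeap1-2, and from 7.10 through 8.23 to 9.84 with siControl. The lowest and the highest of all 24 mice were both siControl mice, replicates 2 and 6. The fold change was 0.16 ± 0.29 with siKeap1-1 (adjusted p = 0.795) and -0.04 ± 0.29 with siKeap1-2 (adjusted p = 0.962), with 95% intervals of the ratio of 0.744 to 1.68 and of 0.648 to 1.47. Within groups Acta2 and the 18S control gave r = -0.627 (rho = -0.616), which did not pass (adjusted permutation p = 0.0991 and 0.108 over 22 probe sets), with -0.456 within siKeap1-1, -0.043 within siKeap1-2 and -0.767 within siControl. With 18S as a covariate the values were 1.01 with siKeap1-1 and 0.77 with siKeap1-2. Against siControl replicates 1 to 3 alone they were 0.92 with siKeap1-1 and 0.72 with siKeap1-2, against replicates 4 to 8 they were -0.29 and -0.49, and none of these was called. Its sign thus depended on which controls were used. The deviations of Acta2 correlated at r = 0.825 (rho = 0.824, adjusted permutation p = 2.70e-04 each) with the mean of the 4 vascular smooth muscle markers Myh11, Cnn1, Actg2 and Smtn, 1 of 27 relations between members and cell type markers that were computed, and at 0.805 without the 2 mice farthest from the median. The mean of the 3 lymphocyte markers gave r = 0.682 (rho = 0.495, adjusted permutation p = 0.0133 and 0.118), with 0.141 within siKeap1-1, 0.252 within siKeap1-2 and 0.936 within siControl, and 0.402 without the 2 mice farthest from the median. The dim Acta2 probe set 1444105_at, at a mean of 2.88, was the only lower member at an unadjusted p under 0.05, at -0.19 with siKeap1-1 (adjusted p = 0.199) and -0.20 with siKeap1-2 (adjusted p = 0.200), and gave 0.01 and -0.01 with the 18S covariate.

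Timp1 encodes an inhibitor of matrix metalloproteinases that activated stellate cells secrete, and Lox the enzyme that starts the cross-linking of collagen. Timp1 (1460227_at) ran from 4.79 through a median of 5.38 to 6.28 with siKeap1-1, from 4.68 through 5.51 to 5.89 with siKeap1-2, and from 5.04 through 5.36 to 6.38 with siControl. The groups overlapped, with 3 siKeap1-1 mice and 2 siKeap1-2 mice below the lowest control and none above the highest. It gave -0.11 ± 0.22 with siKeap1-1 (adjusted p = 0.828) and -0.18 ± 0.22 with siKeap1-2 (adjusted p = 0.719). Without siControl replicate 4, the values were 0.01 and -0.06. The 3 Lox probe sets were all dim, with means of 4.43, 4.40 and 2.48. Of these, 1448228_at gave 0.01 and 0.10 and 1437903_at gave 0.05 and 0.03 for siKeap1-1 and siKeap1-2. Lox 1416121_at ran from 3.68 through 4.33 to 5.89 with siKeap1-1, from 3.99 through 4.62 to 5.30 with siKeap1-2, and from 2.71 through 4.05 to 4.75 with siControl. It gave 0.46 ± 0.29 (adjusted p = 0.361) and 0.63 ± 0.29 (adjusted p = 0.211). Without siKeap1-1 replicate 2 the first value was 0.26, and without siControl replicate 3, the lowest control, the second was 0.44. With the 18S covariate they were 1.00 with siKeap1-1 (adjusted p = 0.170) and 1.14 with siKeap1-2 (adjusted p = 0.221), against siControl replicates 1 to 3 alone 1.02 and 1.19, and against replicates 4 to 8 alone 0.13 and 0.29, none of them called.

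Tgfb1 encodes the cytokine that drives collagen synthesis in stellate cells. Its brighter probe set (1420653_at) ran from 5.63 through a median of 5.77 to 6.18 with siKeap1-1, from 5.49 through 5.67 to 6.30 with siKeap1-2, and from 5.08 through 5.61 to 5.98 with siControl. It gave 0.27 ± 0.12 with siKeap1-1 (adjusted p = 0.184) and 0.15 ± 0.12 with siKeap1-2 (adjusted p = 0.525), or 0.07 without siKeap1-2 replicate 4. With the 18S covariate the values were 0.48 (adjusted p = 0.113) and 0.355 (adjusted p = 0.464), while siControl replicates 4 to 8 as the only controls gave 0.19 and 0.08. The dimmer 1445360_at gave 0.11 with siKeap1-1 (adjusted p = 0.486), or 0.07 without siKeap1-1 replicate 6, and 0.24 with siKeap1-2 (adjusted p = 0.0981). Pdgfrb (1436970_a_at) ran from 8.32 through 8.98 to 9.62 with siKeap1-1, from 8.73 through 9.10 to 9.56 with siKeap1-2, and from 8.71 through 8.92 to 9.25 with siControl, and gave 0.04 ± 0.15 (adjusted p = 0.918) and 0.17 ± 0.15 (adjusted p = 0.576), with -0.15 and -0.01 under the 18S covariate. Its second probe set gave 0.17 and 0.14. For the brightest probe set of Tgfb1, 3 siKeap1-1 mice and 2 siKeap1-2 mice were above the highest control. For that of Pdgfrb, 3 siKeap1-1 mice were above and 2 below all controls, and 2 siKeap1-2 mice were above.

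Lrat, whose product stores vitamin A in the quiescent stellate cell, was read by 2 probe sets that went different ways. The bright 1444487_at ran from 8.90 through a median of 9.38 to 9.97 with siKeap1-1, from 8.99 through 9.35 to 9.81 with siKeap1-2, and from 8.95 through 9.71 to 10.07 with siControl, and gave -0.175 ± 0.18 (adjusted p = 0.630) and -0.18 ± 0.18 (adjusted p = 0.635). The dimmer 1421345_at ran from 4.96 through 5.95 to 6.41 with siKeap1-1, from 5.66 through 6.10 to 6.51 with siKeap1-2, and from 4.60 through 5.61 to 6.12 with siControl. It rose with siKeap1-2 by 0.75 ± 0.23 (adjusted p = 0.0471), with 3 of 8 mice above the highest control, and gave 0.51 ± 0.23 with siKeap1-1 (adjusted p = 0.174). The 2 probe sets still correlated within groups (r = 0.656, rho = 0.686, adjusted permutation p = 0.00877 and 0.00405 over 15 pairs of probe sets of a gene).

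The signal of Lrat 1421345_at was set beside the 18S control. In siControl replicates 1 to 3, where 18S was high, it was 5.72 to 6.12, and in replicates 4 to 8, where 18S was low, 4.60 to 5.83. In siKeap1-1 18S was 10.17 to 10.44 in replicates 1 to 3 and 11.17 to 11.43 in replicates 4 to 8, and the probe set was 4.96 to 6.06 and 5.83 to 6.41. In siKeap1-2 18S was 10.82 to 11.12 in replicates 1 to 3 and 10.45 to 10.96 in replicates 4 to 8, and the probe set was 5.90 to 6.48 and 5.66 to 6.51. Within groups the 2 signals gave r = 0.590 (rho = 0.533), which did not pass (adjusted permutation p = 0.135 and 0.213 over 22 probe sets), with 0.588 within siKeap1-1, -0.283 within siKeap1-2 and 0.705 within siControl. With 18S as a covariate the Lrat values were -0.12 with siKeap1-1 (adjusted p = 0.882) and 0.15 with siKeap1-2 (adjusted p = 0.905). Against siControl replicates 1 to 3 alone they were -0.03 (adjusted p = 0.967) and 0.21 (adjusted p = 0.798), and against replicates 4 to 8 alone 0.83 (adjusted p = 0.0235) and 1.08 (adjusted p = 0.00414), both called. In addition, the siKeap1-2 call was lost in 15 of the 24 fits that left out 1 mouse (siKeap1-1 replicates 2, 4, 6 and 7, siKeap1-2 replicates 1, 2, 3, 4, 6, 7 and 8, and siControl replicates 4, 5, 6 and 8), with values of 0.64 to 0.85 over the 24 and an adjusted p of at most 0.105.

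**Figure D4:**
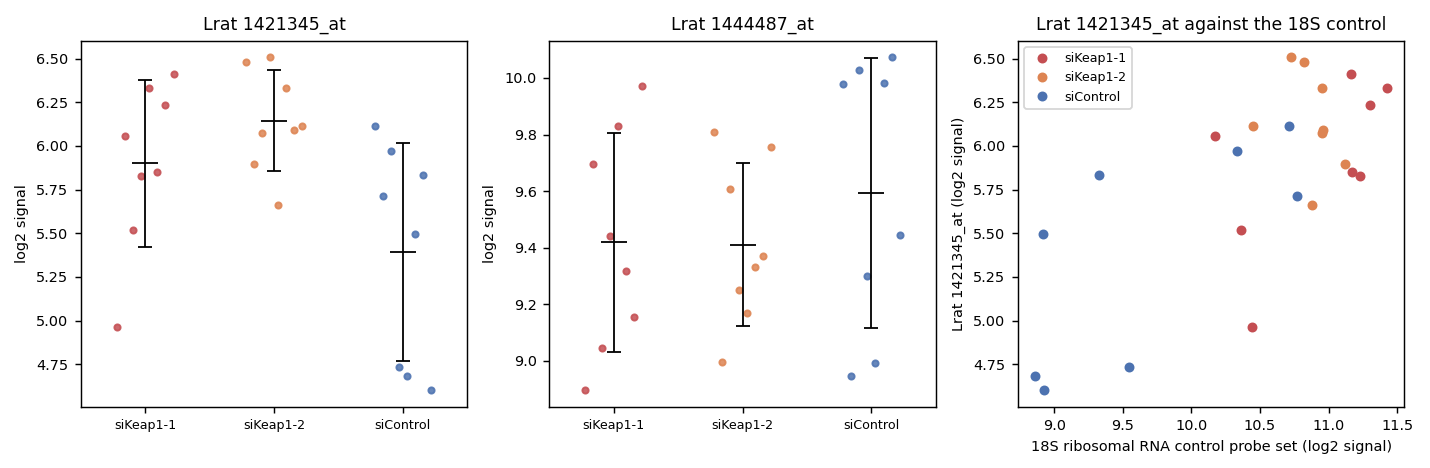
Log2 signal (y axis) of the Lrat probe sets 1421345_at and 1444487_at by siRNA, 1 point per mouse with mean and SD over 8 mice, and of 1421345_at against the 18S ribosomal RNA control probe set (x axis, log2 signal). The lowest 1421345_at signals, 4.60 to 4.73, are siControl mice with a low 18S signal, and 1444487_at overlaps between all groups.

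Between siKeap1-1 and siKeap1-2, 0 of the 22 probe sets differed in limma, against 0.162% of all probe sets. At an unadjusted p under 0.05 there were also 0, where 5.61% of all probe sets were higher and 3.69% lower with siKeap1-1. The differences lay between -0.24, for Lrat 1421345_at, and 0.35, for Col3a1 1427884_at. For the bright Col1a1 probe set the difference was 0.27 ± 0.35, with a 95% interval of -0.45 to 0.99 that leaves room for a ratio of 0.730 to 1.99.

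The other genes of the pathway were taken from 8 lists, of other collagens, basement membranes, collagen processing, matrix proteases, TGF-beta signalling, PDGF signalling, and quiescent and activated stellate cells, with 98 genes, of which 91 had a probe set of their own. Each was represented by its brightest probe set. With siKeap1-1, 5 of the 91 were higher and 4 lower at an adjusted p under 0.05, against 4.82% higher and 4.67% lower of all 18193 genes. With siKeap1-2, 4 were higher and 2 lower, against 2.85% and 3.75%. The median fold change over the 91 was 0.08 with siKeap1-1 and -0.003 with siKeap1-2, against 0.01 and -0.01 over all genes. Of all the calls named below from these 8 lists, those of Pdgfc with both siRNAs and of Mmp19 with siKeap1-1 were kept with 18S as a covariate, and the others were lost. With the covariate the fold changes of the lost calls were 0.69 for Lama2, 0.27 for Col8a1 and -0.23 for Col18a1 in siKeap1-1, 0.29 and 0.33 for Tgfbr2 and -0.25 and -0.23 for Fn1 in siKeap1-1 and siKeap1-2, 0.35 for Mmp19 and 0.73 for Postn in siKeap1-2, -0.35 for Pcolce2 in siKeap1-1, and -0.21 and -0.19 for Col5a3 in siKeap1-1 and siKeap1-2, so that apart from Col5a3 they kept most of the size given below. Against siControl replicates 1 to 3 alone, these calls were also lost, apart from that of Lama2, at 0.85 (adjusted p = 0.0268). Col18a1 gave -0.16 and Pcolce2 -0.29 in siKeap1-1, and Mmp19 gave 0.23 in siKeap1-2. Col5a3 gave -0.38 and -0.33 and Fn1 -0.18 and -0.17 in siKeap1-1 and siKeap1-2. Col8a1 gave 0.30 in siKeap1-1, Postn 0.74 in siKeap1-2, and Tgfbr2 0.31 and 0.35 in siKeap1-1 and siKeap1-2.

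The largest change of a called gene in the 8 lists was that of Pdgfc, which encodes a platelet-derived growth factor that acts on the alpha receptor. It was 11.51, 11.78 and 12.13 (lowest, median and highest) with siKeap1-1, 11.18, 11.56 and 12.15 with siKeap1-2, and 10.65, 10.74 and 11.01 with siControl. Every mouse of either Keap1 siRNA was above every control. Pdgfc rose by 1.05 ± 0.12 with siKeap1-1 (adjusted p = 2.69e-06) and by 0.85 ± 0.12 with siKeap1-2 (adjusted p = 1.03e-04). It was called in both comparisons in all 35 alternative settings, also with the 18S covariate, at 1.17 and 0.96. The other genes of the PDGF list were not called by their brightest probe sets, with 0.04 and 0.09 for Pdgfb, 0.16 and -0.15 for Pdgfd, -0.15 and -0.003 for Pdgfa, and -0.15 and -0.16 for the alpha receptor gene Pdgfra in siKeap1-1 and siKeap1-2.

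Of the TGF-beta list, 1 of 17 measured genes rose with each siRNA, Tgfbr2, the type II receptor, by 0.31 ± 0.09 with siKeap1-1 (adjusted p = 0.0343) and by 0.35 ± 0.09 with siKeap1-2 (adjusted p = 0.0247). It was 10.07 to 10.67 with siKeap1-1, 10.26 to 10.67 with siKeap1-2 and 9.76 to 10.41 with siControl, so that the groups overlapped. The siKeap1-1 call was lost without siKeap1-1 replicates 5, 6, 7 or 8 or siControl replicates 2, 4, 5 or 8, with values of 0.26 to 0.36 over all left-out mice, as well as with the replicate number as a block and when only the groups compared were fitted, and the siKeap1-2 call without siControl replicate 4 (adjusted p = 0.0501). Of the receptor and response genes of the list, Tgfbr1 gave -0.21 and -0.11, Smad7, an inhibitor that TGF-beta itself induces, -0.20 and -0.27, and Ccn2, a classical TGF-beta target, 0.35 and 0.15, none of them called. Among matrix proteases and inhibitors, 1 of 11 genes rose with each siRNA, Mmp19, a matrix metalloproteinase. It was 10.68 to 11.42 with siKeap1-1, with every mouse above the controls, 10.44 to 10.96 with siKeap1-2, and 9.86 to 10.55 with siControl, and rose by 0.71 ± 0.11 with siKeap1-1 (adjusted p = 1.16e-04) and by 0.38 ± 0.11 with siKeap1-2 (adjusted p = 0.0333). The siKeap1-2 call was lost without siKeap1-2 replicates 2, 3, 7 or 8 or siControl replicates 6, 7 or 8, with values of 0.32 to 0.42.

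Among the 11 other collagens, Col5a3, a chain of type V collagen, fell by 0.74 ± 0.20 with siKeap1-1 (adjusted p = 0.0215) and by 0.69 ± 0.20 with siKeap1-2 (adjusted p = 0.0410). Its signals were 9.08 to 10.53 with siKeap1-1, 9.07 to 10.47 with siKeap1-2 and 9.89 to 10.77 with siControl. The siKeap1-2 call was lost without siKeap1-2 replicates 1, 2, 3, 5 or 6 or siControl replicates 4 to 8, with values of -0.80 to -0.60. Col8a1, a short-chain collagen, rose by 0.25 ± 0.07 with siKeap1-1 (adjusted p = 0.0205). Of 12 basement membrane genes, Lama2, a laminin chain, rose by 0.69 ± 0.16 with siKeap1-1 (adjusted p = 0.00767), at 7.39 to 8.51 with siKeap1-1 against 7.05 to 7.98 with siControl. Col18a1, the endostatin precursor, which hepatocytes also make, fell by 0.27 ± 0.07 (adjusted p = 0.0103). Neither was called with siKeap1-2, at 0.25 and -0.13, and the difference between the siRNAs was not called either (adjusted p = 0.362 and 0.521). Pcolce2, an enhancer of procollagen processing, fell by 0.49 ± 0.14 with siKeap1-1 (adjusted p = 0.0212) and gave -0.32 with siKeap1-2.

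**Figure D5:**
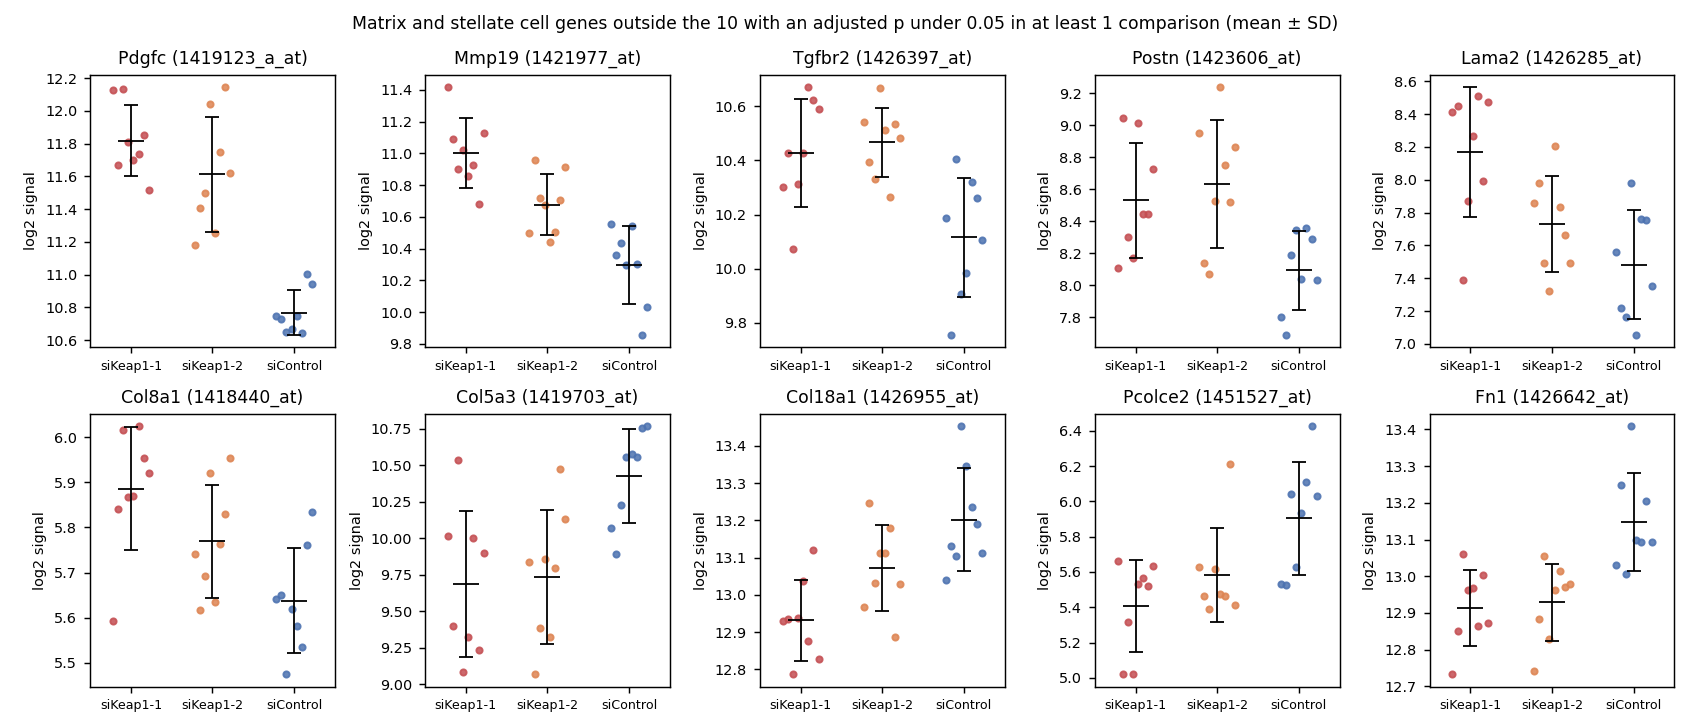
Log2 signal (y axis) of the brightest probe sets of 10 further matrix and stellate cell genes with an adjusted p under 0.05 in at least 1 comparison, 1 point per mouse in siKeap1-1 (red), siKeap1-2 (orange) and siControl (blue), with mean and SD over 8 mice. For Pdgfc the siKeap1-1 mice at 11.51 to 12.13 and the siKeap1-2 mice at 11.18 to 12.15 lie above all siControl mice, at 10.65 to 11.01.

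Most markers of stellate cells were not called. Of 12 quiescent markers, which include Reln, Dcn, Des and Colec11, 0 were called with either siRNA by their brightest probe sets. When any probe set was counted, 2 of 12 were called with each, against 14.5% of all genes with siKeap1-1 and 10.8% with siKeap1-2. By a dimmer probe set of each gene, these were Dcn at -0.47 and Reln at 0.24 with siKeap1-1, and Rgs5 at 0.72 and Hhip at -0.48 with siKeap1-2 (adjusted p = 0.0208, 0.0430, 0.00856 and 0.0446), named after their values were seen. The brightest probe sets of the same 4 genes gave 0.06, -0.15, 0.34 and -0.30. The mean signal of the 12 was 8.59 to 9.01 with siKeap1-1, 8.75 to 8.97 with siKeap1-2 and 8.68 to 9.03 with siControl. Of 10 markers of activated cells, Fn1, fibronectin, which hepatocytes also secrete, fell by 0.23 ± 0.06 with siKeap1-1 (adjusted p = 0.0199) and by 0.22 ± 0.06 with siKeap1-2 (adjusted p = 0.0390). Postn, the matrix protein periostin, rose by 0.54 ± 0.16 with siKeap1-2 (adjusted p = 0.0460) and gave 0.44 ± 0.16 with siKeap1-1 (adjusted p = 0.0922). It was 8.11 to 9.04 with siKeap1-1, 8.07 to 9.24 with siKeap1-2 and 7.69 to 8.36 with siControl. The siKeap1-2 calls were lost in 10 of 24 fits without 1 mouse for Fn1 (siKeap1-2 replicates 1, 2, 4, 5 and 7 and siControl replicates 2, 4, 6, 7 and 8), with values of -0.24 to -0.18, and in 16 of 24 for Postn (siKeap1-1 replicates 6 to 8, siKeap1-2 replicates 1 and 4 to 8, and all siControl replicates but 4), with values of 0.45 to 0.62. The Postn call was also lost with the replicate block, and the siKeap1-2 call of Fn1 when only the groups compared were fitted. Sparc gave 0.39 and 0.40 (adjusted p = 0.0537 and 0.0559). Desmin and the stellate cell lectin Colec11 were present in all groups, with means of 7.16 and 11.67 with siKeap1-1, 7.10 and 11.76 with siKeap1-2, and 7.06 and 11.67 with siControl, as were the hepatocyte markers, whose mean signal was 14.70 to 14.83 over all mice.

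Other cells that share these genes were checked by their markers. Of all 18193 genes, 4.82% were called higher and 4.67% lower with siKeap1-1, and 2.85% and 3.75% with siKeap1-2. None of the 4 vascular smooth muscle, 4 portal fibroblast or mesothelial, 5 sinusoidal endothelial, 3 lymphocyte and 4 hepatocyte markers was called by its brightest probe set. Beside these shares, a count of 0 in such short lists does not show that the cells were unchanged. Of 5 Kupffer cell markers, Timd4 fell by 1.52 with siKeap1-1 and by 1.16 with siKeap1-2, Vsig4 fell by 0.60 with siKeap1-1, and Marco rose by 1.49 with siKeap1-2 (adjusted p = 0.00150, 0.0183, 0.0180 and 0.0122). Of 4 bile duct markers, only Sox9, a transcription factor of bile duct cells, was called, and it rose by 0.87 and 0.96 (adjusted p = 5.82e-05 and 2.70e-05). The 4 markers did not rise as a set. Their median fold change was 0.10 with siKeap1-1 and -0.35 with siKeap1-2. Their mean signal was 7.30 with siKeap1-1, 7.06 with siKeap1-2 and 7.08 with siControl. The part of these cells in the collagen values was not tested across groups. Of the 27 relations computed, the deviations of Col1a1 correlated at r = 0.670 (rho = 0.663, adjusted permutation p = 0.00418 and 0.0111) with the portal fibroblast and mesothelial mean. They gave r = 0.618 (rho = 0.622, adjusted permutation p = 0.0133 and 0.0192) with the activated stellate cell mean. With the quiescent stellate cell mean they gave r = 0.169 (rho = 0.183, adjusted permutation p = 0.748 and 0.630). Within siKeap1-1, siKeap1-2 and siControl the r was 0.735, 0.677 and 0.656 for the portal mean. It was 0.816, 0.727 and 0.144 for the activated mean, and 0.619, -0.49 and 0.017 for the quiescent mean, so that these relations differed between groups. Without the 2 mice farthest from the median, the 3 values were 0.608, 0.474 and -0.017.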

How the data were processed

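Liver RNA of 24 mice was hybridized to Affymetrix Mouse Genome arrays, 8 per siRNA group. The deposited values are log2 signals that the authors computed with RMA, a method of background correction, quantile normalization and summary over the probes of a set, whose version the sources used here do not give. Of 45101 probe sets, 64 controls were left out and 45037 were tested without a filter in 1 fit of the 3 groups (limma 3.58.1, functions lmFit and eBayes, under R 4.3.3), with Benjamini-Hochberg adjustment over all of them. Since the labels give the siRNA but no second factor, the methods' 2-way ANOVA could not be fitted. The annotation gives 1 gene for 34945 probe sets, several for 932 and none for 9160, and a gene with several probe sets is represented by the brightest over all arrays. The number of arrays limits the precision. Correlations used permutation within groups (numpy, scipy; matplotlib 3.10.9 for plots), and the procedure was checked on simulated data. The members, the lists and the tests were chosen with earlier results of these data known. Named beside the members are Keap1, up to 4 called genes per list and comparison with the largest change, and the 5 genes most like Col1a1; other likeness searches and other genes of a list were chosen after their values were seen. The labels do not say whether replicates share a cage or day, and they carry no feeding state. Of the listed genes, 7 have no probe set of their own in the matrix lists and are not analysed here. Alternatives covered normalization, centring, dim probe sets, the replicate number as a block, the groups fitted, array weights, moderation, the first residual component and the 18S control as covariates, the controls used, thresholds and the arrays left out.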

Additional observations from a re-analysis of the deposited data

Results flagged for a closer look

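In a search over the 22 probe sets in each of the 3 groups (66 sets of 8 values, of which chance flags about 1 in 20), 3 single mice stood far from the rest of their group. Lox 1416121_at was 2.71 in siControl replicate 3, with the other controls at 3.80 to 4.75. Lox 1448228_at was 4.12 in siKeap1-2 replicate 4, with the others at 4.45 to 4.62. Acta2 1444105_at was 3.20 in siKeap1-1 replicate 3, with the others at 2.59 to 2.87, all near the bottom of the signal range. Outside the probe sets tested, the array's own 18S ribosomal RNA probe set had a mean 1.23 higher in siKeap1-1 and 1.18 higher in siKeap1-2 than in siControl.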

How the results depend on the processing

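The count of called member probe sets was 0 with siKeap1-1 against siControl and became 1 when only the groups compared were fitted (Col1a2 1450857_a_at) and against siControl replicates 4 to 8 alone (Lrat 1421345_at). It was 0 to 1 over the fits that left out 1 mouse. With siKeap1-2 against siControl the count was 1 (Lrat 1421345_at) and became 0 among probe sets above the median signal, where this probe set is left out by construction, with the 18S covariate, against siControl replicates 1 to 3 alone and under the study's thresholds of a fold over 2 and an unadjusted p under 0.01. It was 2 with array weights, 3 at an adjusted p under 0.1, and 0 to 1 over the fits that left out 1 mouse. When only these groups were fitted the count stayed 1, but with Col4a1 1452035_at in place of Lrat 1421345_at (adjusted p = 0.0534). Between the Keap1 siRNAs it was 0 under every alternative run. The cause of these changes was not tested. With the replicate number as a block (replicate block) the siKeap1-2 count was 0, with an adjusted p of 0.0909 for Lrat 1421345_at; mice of the same number deviated together at r between -0.17 and 0.28, and the block changed no other count of called member probe sets. No called fold change of a member turned its sign. Among all recomputed member values, called or not, the sign differed from the first value in 26 of 760 for siKeap1-1, 12 of 760 for siKeap1-2 and 42 of 716 for the comparison between them. Of these, 3 for siKeap1-1 and 1 for siKeap1-2 had a first value larger than its SE. The largest was 0.51, for Lrat 1421345_at with siKeap1-1. The wider spread of Col1a1 and Col3a1 kept its direction under quantile normalization, median centring and each left-out mouse, alternatives added after seeing the data, over the left-out mice at 0.10 to 0.33 for Col1a1 and 0.16 to 0.28 for Col3a1 in siKeap1-1, and in siKeap1-2 at 0.38 to 0.56 for Col1a1 and 0.39 to 0.57 for Col3a1. Of the genes of the wider lists, Pdgfc and Sox9 were called with both siRNAs, and Mmp19 and Timd4 with siKeap1-1, in all 35 alternatives, also added after seeing the data, and none of the 14 genes of these lists that were recomputed turned its sign. Postn with siKeap1-2 was called in 14 of the 35, and, of these 14, every called gene other than Pdgfc, Mmp19 with siKeap1-1, Timd4 with siKeap1-1 and Sox9 lost its call with the 18S covariate, under which the fold changes were -0.62 for Vsig4 in siKeap1-1 and -1.33 for Timd4 and 0.97 for Marco in siKeap1-2. The replicate block also ended the calls of Tgfbr2 with siKeap1-1 and of Postn with siKeap1-2, and no other of these genes' calls.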
